A study of Mus musculus with 10 samples.

Results

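The cytosolic ribosomal protein genes were taken as the rows of the liver count table that GENCODE M21 lists as protein coding, with a symbol made of Rpl or Rps, a number and at most 1 letter (a, x or l) after it, or Rplp0, Rplp1, Rplp2 or Rpsa, and a summed count of at least 1000. The rule gave 76 of the 46071 gene rows, 45 of the large and 31 of the small subunit, on 19 chromosomes. All 76 passed the filter on low counts and were among the 14820 genes tested. Rpl24 (804 counts), Rpl3l (106), Rpl39l (7) and Rpl10l (0) had the right symbol but fell under the count minimum. The lowest member, Rpl23a, had 16764 counts in all, and the highest, Rpl13a, had 280010. Rps3a1, Rack1 and Fau, whose products are also ribosomal, lay outside the symbol rule.

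The study compared liver transcriptomes of offspring by which parent, if either, lacked the insulin receptor in hepatocytes. FL offspring (3 livers, numbered 5 to 7) had a LIRKO father, homozygous for the floxed insulin receptor gene and carrying 1 copy of Albumin-Cre, and a control mother. ML offspring (3 livers, numbered 8 to 10) had a LIRKO mother of the same genotype and a control father. Control offspring (4 livers, numbered 1 to 4) came from parents that were both homozygous for the floxed gene and lacked Cre, and the control parents had been bred over 4 generations to limit traces of Cre. Albumin-Cre acts in hepatocytes, so other liver cells of a LIRKO parent keep the receptor. The floxed gene is shared by the parents of all 3 groups, and the offspring's own Cre genotype, sex and age are not given in the labels. Insr, the insulin receptor gene, had a CPM (count scaled to library size by edgeR) of 77.6, 59.3 and 59.4 in FL 5 to 7, 54.4, 28.2 and 55.2 in ML 8 to 10, and 62.9, 82.2, 128 and 69.1 in controls 1 to 4.

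A ribosome is built from a large and a small subunit, each a core of ribosomal RNA covered by ribosomal proteins that are needed in equal numbers. Their mRNAs begin with a run of pyrimidines, the terminal oligopyrimidine (TOP) motif, through which insulin and nutrient signalling by mTORC1 acts on their translation. In hepatocytes, which secrete most plasma proteins, ribosomes carry a large share of the cell's biosynthesis.

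RefSeq start site windows on GRCm38.p6 were found for 56 of the 76 members. The windows below show any pyrimidine runs around the start of members with high, widely varying or nearly constant levels. Each runs from 60 bases before the start to the first 20 bases from it, and capitals mark pyrimidine runs of at least 8 bases. Rpl13a, the member with the highest level, is on the minus strand at chr7:45128726-45128805. Rpl41, with the largest log2 fold change in ML, is on the minus strand at chr10:128549149-128549228. Rps27, on the minus strand at chr3:90213629-90213708, and its paralog Rps27l, on the plus strand at chr9:66946026-66946105, are shown as a pair. Rpl4, on the plus strand at chr9:64173327-64173406, varied least but for 1 member.
Rpl13a: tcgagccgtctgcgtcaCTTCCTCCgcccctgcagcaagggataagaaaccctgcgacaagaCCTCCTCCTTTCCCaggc
Rpl41: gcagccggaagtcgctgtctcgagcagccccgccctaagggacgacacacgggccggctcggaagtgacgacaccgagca
Rps27: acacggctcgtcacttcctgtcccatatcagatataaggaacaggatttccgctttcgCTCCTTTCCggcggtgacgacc
Rps27l: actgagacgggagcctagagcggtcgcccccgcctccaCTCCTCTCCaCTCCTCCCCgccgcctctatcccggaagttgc
Rpl4: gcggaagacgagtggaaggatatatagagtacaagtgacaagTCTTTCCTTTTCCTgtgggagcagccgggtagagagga

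In these windows the Rps27 run spanned the RefSeq start, and the longer Rpl13a run lay just after it. The runs of Rps27l and Rpl4 ended before the start, as did the shorter Rpl13a run. The Rpl41 window held no run of at least 8 bases, and its RefSeq start lay 137 bases from the GENCODE start used for gene lengths. A run of at least 8 pyrimidines on the sense strand within 30 bases of the start was present in 30 of the 56 member windows (53.6%), and in 22% of all 16520 promoter windows. CCGGAAG, searched on both strands over the 300 bases of each window, was in 23 of 56 (41.1%), against 12.3% of all windows. AAGATGG was in 8 (14.3%), against 6.43%, and TATAAA in 5 (8.93%), against 12.9%. Members with a pyrimidine run had a median log2 fold change of 1.57 in ML against control (n = 30), and those without had 1.60 (n = 26). The medians were 1.56 with CCGGAAG (n = 23) and 1.58 without it (n = 33), and 1.63 with AAGATGG (n = 8) and 1.58 without it (n = 48). Members with TATAAA had a median of 1.37 (n = 5), and those without had 1.59 (n = 51). Without ML 9 and control 1, libraries described next, the medians were 0.93 with and 0.91 without a pyrimidine run, and 0.71 with and 0.93 without TATAAA. In that fit they were 0.92 with and 0.92 without CCGGAAG, and 1.02 with and 0.92 without AAGATGG.

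The 10 libraries held 18655506 (control 1) to 39379940 counts. ML 9 and control 1 stood apart from the others. The share of counts annotated as ribosomal RNA was 1.03%, 0.534% and 1.31% in FL, and 1.66%, 4.69% and 1.67% in ML 8 to 10. In controls 1 to 4 it was 2.10%, 0.593%, 1.14% and 0.520%. For nuclear ribosomal RNA genes picked by symbol, ML 9 again had the highest share, 0.115%. By that measure control 1, at 0.066%, did not stand apart. It lay below FL 5 (0.079%), FL 7 (0.080%) and ML 8 (0.076%), though above FL 6, ML 10 and controls 2 to 4. The 1239 other genes with under 1000 bases of exon lay above their own mean over the libraries by a median of 1.65 (log2) in ML 9, 0.51 in control 1 and 0.34 in ML 10, and below it in the remaining 7. Exon length counted the bases in any exon of a gene. By this measure 10 members were that short and the median member had 1806 bases, so these genes do not match the members in exon length. By the median length of a gene's coding transcripts, the median member had only 704 bases. The length trend removed further below also used exon length. Summed hepatocyte markers, such as albumin and transthyretin, were at 57227 to 65537 CPM in FL, 56838 to 101610 in ML and 63920 to 85556 in controls, and all 6 had counts, as the liver label requires. The TMM factor that edgeR applied to library sizes was 0.577 in ML 9 and 0.933 to 1.16 in the other 9, so that values in ML 9 depend on this scaling more than the rest. The members' medians and counts are given with all libraries and without ML 9 and control 1.

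The members took 1.58%, 1.81% and 2.17% of all counts in FL 5, 6 and 7. They took 2.34%, 7.99% and 2.84% in ML 8, 9 and 10, and 3.86%, 1.40%, 1.49% and 1.54% in controls 1 to 4. ML 9 thus held the highest share and control 1 the next, and all 3 FL livers lay between control 4 and ML 8. The widest 95% Wilson interval reached 0.010 percentage points either side of the share, in ML 9, and covers counting error only. Group means were 1.85% ± 0.30 in FL (SD, n = 3), 4.39% ± 3.13 in ML (SD, n = 3) and 2.07% ± 1.19 in controls (SD, n = 4). In a bulk liver sample, more cells of a type and more ribosomal protein mRNA per cell cannot be told apart.

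**Figure D1:**
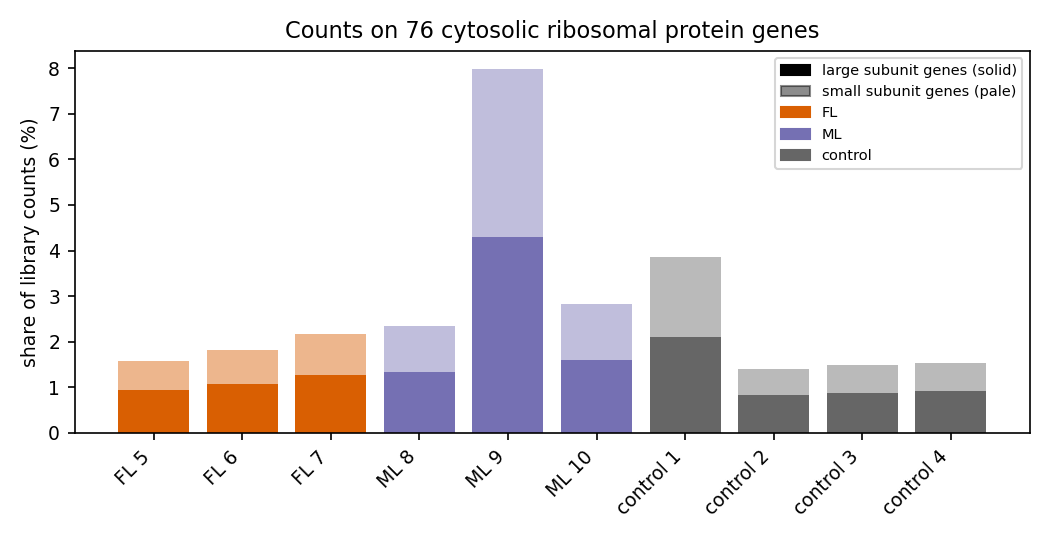
Share of each library's counts (%, vertical axis) on the 76 genes, with large subunit genes in solid and small subunit genes in pale colour; each bar is 1 library of FL, ML or control. ML 9 stands at 7.99% and control 1 at 3.86%, and the other 8 lie between 1.40% and 2.84%.

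The subunits did not move in step in every library. Large subunit genes had 1.45, 1.44 and 1.37 times the counts of small subunit genes in FL, 1.33, 1.16 and 1.30 times in ML, and 1.19, 1.43, 1.42 and 1.46 times in controls. The 2 libraries with the highest share of ribosomal protein counts, ML 9 and control 1, had the lowest ratios.

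Set against the mean of controls 2, 3 and 4, the median member was at 0.977, 1.17 and 1.41 times in FL 5, 6 and 7. It was at 1.45, 9.54 and 2.26 times in ML 8, 9 and 10, and at 2.80 times in control 1. In ML 9 the ratio ran from 1.58 for Rpl30 to 24.2 for Rpl41, and in control 1 from 0.965 for Rpl30 to 6.50 for Rps14. ML 9 was the highest of all 10 libraries for 76 members, ML 8 the lowest of ML for 76, FL 5 the lowest of FL for 74, and control 1 the highest control for 75. The highest FL library was FL 7 for 61 members and FL 6 for 15, and the lowest control was control 4 for 53, control 3 for 15, control 2 for 7 and control 1 for 1. The highest library exceeded the lowest by a median of 10.3 times per member, and by 2.43 times among the 8 libraries without ML 9 and control 1.

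**Figure D2:**
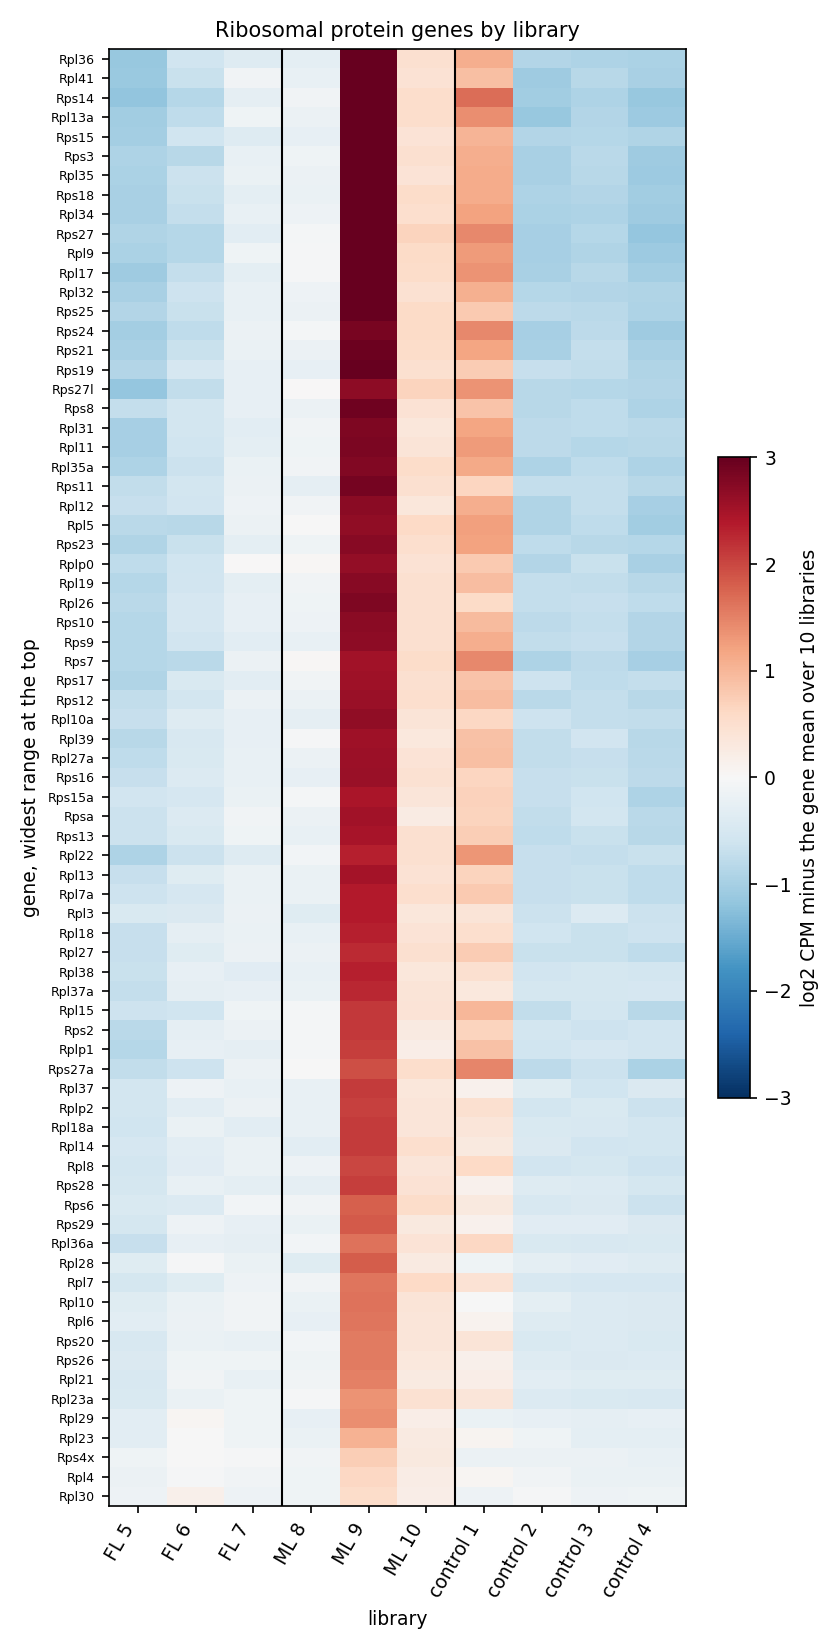
Level of 75 of the 76 genes (rows, widest range at the top) in each library (columns, FL, ML, then control), as log2 CPM minus the gene's mean over the 10 libraries, with colours capped at 3. ML 9 is the highest library in every row, control 1 is the next in most rows, and the lowest rows, Rpl30, Rpl4 and Rps4x, vary little.

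Across the 10 libraries, 73 members had a Pearson r above 0.9 with the mean log2 CPM of the members (median 0.994, and 0.983 over 8 libraries). These values describe libraries that share depth and composition, and the mean contains the member itself. Rpl30 had the lowest r, 0.778. Among 6934 other genes, those closest to the member mean were Fau (r = 0.998), whose product is a ubiquitin-like protein fused to a small subunit protein, then Tsta3, Mrpl57, Dpm3, Uqcr10, Uqcrh, Cyc1 and Polr2f, all at 0.997.

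Levels between genes were compared per length, as TPM, a level corrected for the median length of a gene's coding transcripts and scaled to the same total in every library. Rpl13a, a large subunit protein, averaged 2151 TPM over the 10 libraries and was the highest member in 7 of them. Rps18, at the head of the small subunit, averaged 1344 TPM, Rps14 averaged 1306, Rplp1 averaged 1253 and Rpl41 averaged 1175. Over the 8 libraries without ML 9 and control 1 the order differed: Rpl13a averaged 1314 TPM, Rplp1 averaged 1058, Rps2 averaged 859, Rps18 averaged 850, Rplp0 averaged 817, Rps14 averaged 761 and Rpl41 averaged 694. Rps20 at 62.6 TPM, Rpl22 at 113 and Rpl23a at 114 were lowest over the 10 libraries, and the median member was at 492. The low value of Rps20 rests on an annotated length of 3706 bases, against a median of 704 over the members.

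In FL livers, no ribosomal protein gene differed from controls by edgeR's quasi-likelihood test at an adjusted p under 0.05, and the call was made for 0.0135% of all genes tested. No member had an unadjusted p under 0.05, where 1.63% of all genes did in the higher and 1.90% in the lower direction. DESeq2 and limma-voom also gave 0 members at either level. The median member had a log2 fold change of -0.27 and all genes a median of -0.05, while the short genes that are not members were at -0.30. Of the members, 67 were below 0, or 52 where library sizes were used with no scaling factor. With a surrogate variable in the fit the median was 0.13. Without ML 9 and control 1 the median was 0.23, all 76 members were above 0, and again none passed (0.0197% of all genes did) or had an unadjusted p under 0.05 (3.23% of all genes higher, 3.57% lower).

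The members with the lowest p in FL were Rpl22, Rps14, Rps27a and Rps27l. Rps14, a small subunit protein at the platform near the mRNA channel, had 221, 275 and 414 CPM in FL 5 to 7, against 1591, 243, 263 and 228 in controls 1 to 4. FL 6 and FL 7 lay within the range of the controls, which control 1 stretched, and FL 5 lay just below it. Its log2 fold change was -0.94 (SE 0.88), and 0.31 (SE 0.27) without ML 9 and control 1.

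Rpl22, a large subunit protein whose paralog Rpl22l1 can take its place, had 92.0, 112 and 133 CPM in FL, against 441, 109, 107 and 110 in controls. Rps27a, made as a fusion with ubiquitin, had 200, 217 and 296 CPM in FL, against 927, 194, 214 and 175 in controls. Control 1 was the highest of both groups for each gene. The log2 fold changes were -0.77 (SE 0.65) for Rpl22 and -0.67 (SE 0.64) for Rps27a, and 0.05 and 0.30 without the pair of libraries.

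The 1 member whose FL values lay above every control was Rps4x, the X-linked small subunit protein, with 260, 285 and 279 CPM in FL, against 253, 252, 251 and 245 in controls. Such a separation upward was seen in 2.79% of all genes. Rps4x also lay above every control in ML, at 265, 474 and 350 CPM, as 2.17% of all genes did there. Its log2 fold change against control was 0.13 (SE 0.27) for FL and 0.54 (SE 0.27) for ML, neither past the threshold (edgeR adjusted p = 1.00 and 0.327). Rps4x is named because it was the only such member, after its values were seen. Without ML 9 and control 1, 7 members had FL values above the remaining controls (9.21%), where 5.87% of all genes did.

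In ML livers, all 76 members had a positive log2 fold change against controls, with a median of 1.57, against -0.05 over all genes and 0.92 over short genes that are not members. None passed at an edgeR adjusted p under 0.05, and neither did any other gene (0% of all tested). At an unadjusted p under 0.05, edgeR gave 64 members, all higher (84.2%, 39 of the large and 25 of the small subunit), where 8.81% of all genes were called higher. DESeq2 gave 70 at that level and limma-voom gave 37. DESeq2 and limma-voom also gave 0 members at an adjusted p under 0.05. The count changed with the libraries kept: without ML 9 alone, edgeR gave 0 members and the median was 0.33. Without both ML 9 and control 1 the count was 68. Without control 2, 3 or 4 it was 30, 30 or 29. With a surrogate variable it was 0 and the median 0.098. With no scaling factor it was 40, where 3.39% of all genes were called higher and 8.55% lower, against 8.81% and 7.33% with TMM. For DESeq2, limma-voom, the surrogate variable and 1 library left out, the share of all genes is not given here. Those counts therefore describe the members alone.

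Without both ML 9 and control 1, the ML median was 0.92, and 68 members had an unadjusted p under 0.05, where 12.4% of all genes were called higher. None passed, and the lowest edgeR adjusted p was 0.0954. Both remaining ML livers lay above the 3 remaining controls for 71 members (93.4%), and for 23.7% of all genes. The exceptions were Rpl23, Rpl28, Rpl29, Rpl30 and Rpl4, all of the large subunit. In these 8 libraries the ML mean exceeded the FL mean, and the FL mean the control mean, for 76 members.

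**Figure D3:**
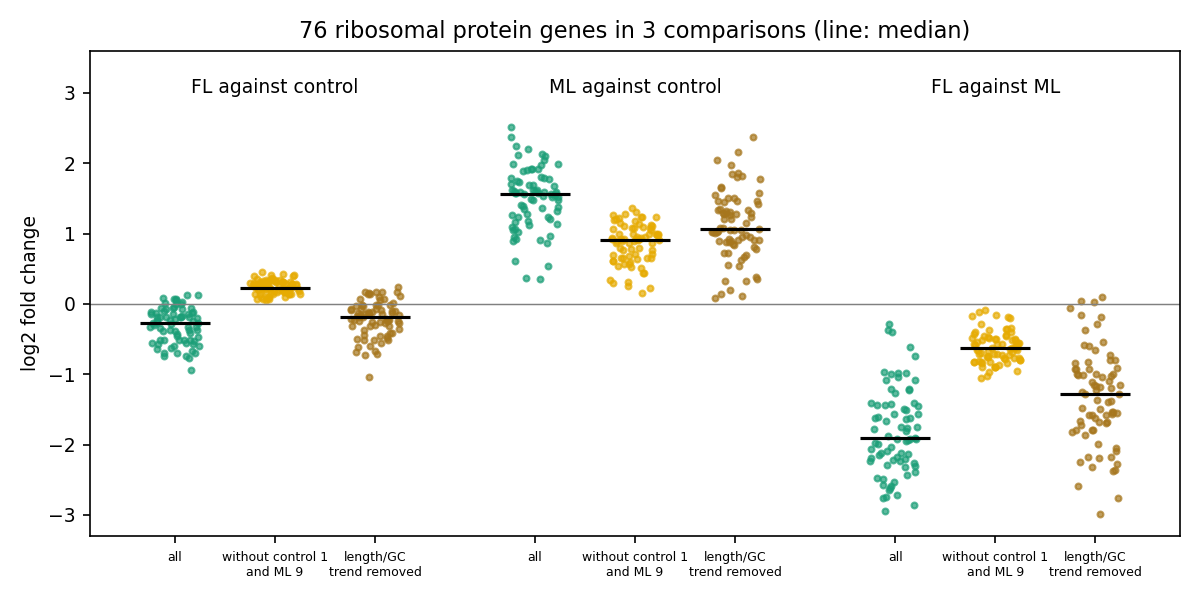
Log2 fold change (vertical axis) of each of the 76 genes (points) in FL against control, ML against control and FL against ML, with all 10 libraries, without control 1 and ML 9, and with a length and GC trend removed from each library; lines are medians. The ML medians are 1.57, 0.92 and 1.06, and the FL medians are -0.27, 0.23 and -0.18.

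The largest log2 fold change in ML was that of Rpl41, a very small basic protein of the large subunit. It had 332, 4847 and 529 CPM in ML 8 to 10, against 727, 185, 217 and 199 in controls 1 to 4. ML 9 alone exceeded control 1, and all 3 ML livers exceeded the other controls. The log2 fold change was 2.52 (SE 0.83, edgeR adjusted p = 0.301), and 1.11 (SE 0.31) without ML 9 and control 1.

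Rpl13a had 619, 6871 and 996 CPM in ML, against 1840, 315, 376 and 324 in controls. The group means were 2829 ± 3506 in ML (SD, n = 3) and 714 ± 751 in controls (SD, n = 4), so that the SD of each group exceeded its mean. Rpl36, also of the large subunit, had 173, 2604 and 299 CPM in ML, against 452, 116, 112 and 110 in controls. Rpl26, which sits near the exit of the peptide tunnel, had 224, 1699 and 340 CPM in ML, against 365, 149, 152 and 145 in controls. In each case ML 9 was the highest library, and ML 8 and 10 lay below control 1 but above the 3 other controls. The log2 fold changes were 1.99 (SE 0.84) for Rpl13a, 2.38 (SE 0.83) for Rpl36 and 1.89 (SE 0.62) for Rpl26. They were 1.26 (SE 0.30), 1.07 (SE 0.28) and 0.93 (SE 0.24) without ML 9 and control 1.

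Of the small subunit, Rps25, which some viral RNAs need to start translation, had 266, 2584 and 445 CPM in ML, against 520, 173, 172 and 158 in controls. Rps18 had 427, 4861 and 712 CPM in ML, against 1059, 259, 264 and 236 in controls. ML 9 was again the highest and control 1 second, above ML 8 and ML 10. Without both libraries the log2 fold changes in ML against control were 1.09 (SE 0.27) for Rps25 and 1.18 (SE 0.27) for Rps18. By subunit, the ML median was 1.49 for the large and 1.60 for the small one.

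The stalk proteins, which recruit elongation factors to the large subunit, were described outside the naming rule for their known role, except for Rplp1. Rplp0 had 690, 4202 and 915 CPM in ML, against 1177, 367, 427 and 345 in controls. Rplp1 had 486, 2105 and 574 CPM in ML, against 920, 331, 354 and 338 in controls. Rplp2 had 172, 838 and 258 CPM in ML, against 281, 137, 147 and 129 in controls. The log2 fold changes were 1.74 (SE 0.63), 1.12 (SE 0.54) and 1.28 (SE 0.50). Rpl5 and Rpl11, which bind Mdm2 when they are not in a ribosome, were at 1.57 (SE 0.69) and 1.59 (SE 0.72), and Rps6, the substrate of the ribosomal S6 kinases, at 1.23 (SE 0.42). Without ML 9 and control 1, Rplp0 was at 1.08 (SE 0.27), Rplp1 at 0.64 (SE 0.23), Rplp2 at 0.65 (SE 0.23), Rpl5 at 1.22 (SE 0.27), Rpl11 at 0.99 (SE 0.25) and Rps6 at 0.78 (SE 0.24). None of these 6 passed the threshold in either fit.

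Rps27 and Rps27l encode near-identical small subunit proteins, and Rps27l is known as a target of p53. Rps27 had 210, 1812 and 345 CPM in ML, against 586, 108, 120 and 97.1 in controls. Rps27l had 267, 1696 and 422 CPM in ML, against 671, 149, 146 and 145 in controls. ML 9 was the highest and control 1 the second library for both paralogs. Without ML 9 and control 1, Rps27 had the largest log2 fold change of all members in ML, 1.36 (SE 0.27), and Rps27l was at 1.24 (SE 0.29). Reads that match both paralogs, or a pseudogene, may have been split or dropped in the authors' counting.

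**Figure D4:**
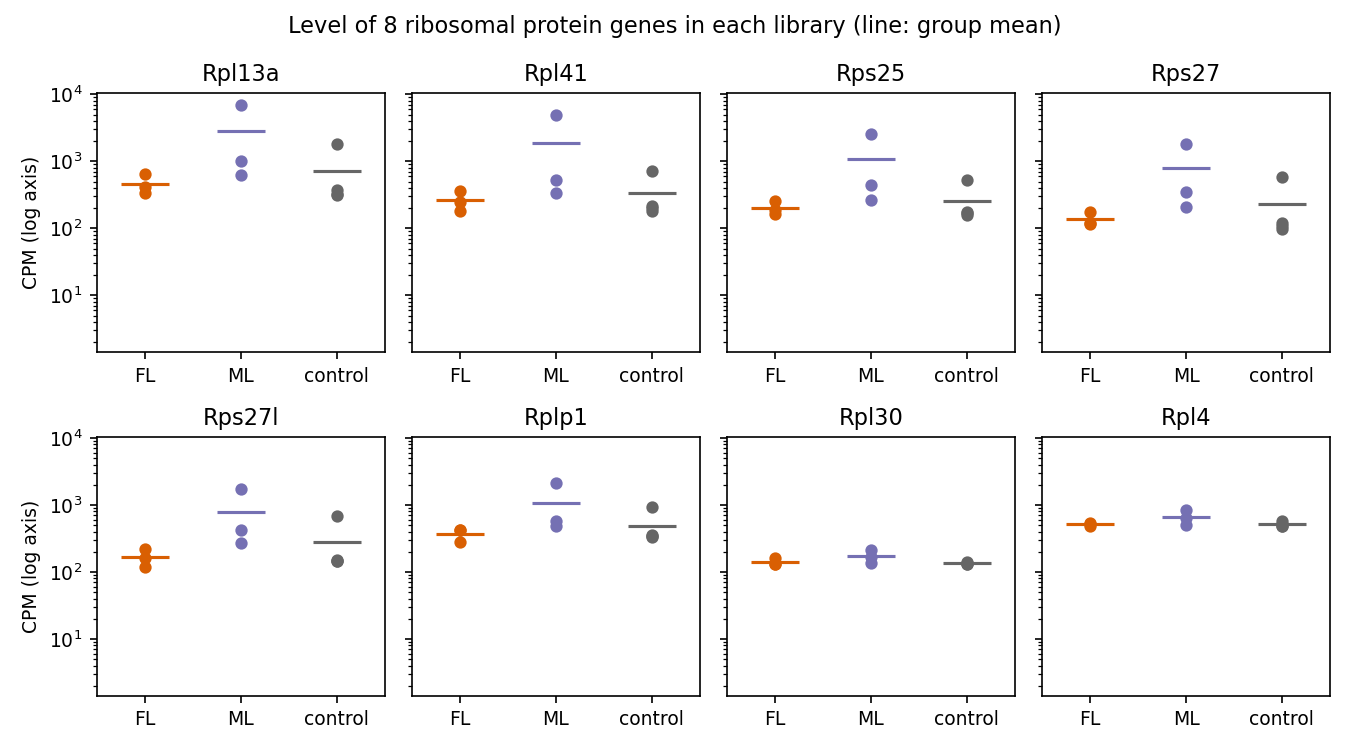
CPM (log axis) of 8 ribosomal protein genes in each library (points), by group, with the group mean as a line. For Rpl13a, Rpl41, Rps25, Rps27, Rps27l and Rplp1 one ML and one control library lie far above the rest of their group, and for Rpl30 and Rpl4 all libraries lie close together.

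A few members varied little. Rpl30, a large subunit protein that in yeast regulates the splicing of its own transcript, had 133, 162 and 132 CPM in FL, 134, 216 and 168 in ML, and 131, 142, 132 and 134 in controls. Rpl4, which lines the peptide tunnel, had 492, 540 and 516 CPM in FL, 508, 851 and 641 in ML, and 578, 514, 481 and 484 in controls. ML 9 was the highest library for both. Their ML log2 fold changes were 0.36 (SE 0.26) and 0.37 (SE 0.27), and 0.16 (SE 0.20) and 0.23 (SE 0.19) without ML 9 and control 1. The range over the 10 libraries was 1.64 times for Rpl30, the lowest, and 26.9 times for Rpl36, the highest. It was under 3 times for 4 members, Rpl23, Rpl30, Rpl4 and Rps4x. Rpl30 and Rpl4 were also the members whose share of the summed member count varied most.

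Rpl23a, near the tunnel exit, had 52.4, 136 and 73.5 CPM in ML, against 68.5, 40.1, 38.8 and 38.1 in controls. Rps20, in the head of the small subunit, had 183, 570 and 251 CPM in ML, against 255, 141, 147 and 142 in controls. Only for ML 9 and, for Rpl23a, ML 10 did these exceed control 1. The log2 fold changes without those libraries, ML 9 and control 1, were 0.70 (SE 0.21) for Rpl23a and 0.61 (SE 0.21) for Rps20. Across the 76 members, the ML log2 fold change had a Pearson r of 0.497 with log2 mean TPM, and the FL one an r of -0.419. Without ML 9 and control 1 in the fit, r was 0.449 for ML and 0.398 for FL, so the FL value changed sign. Mean TPM was taken over all 10 libraries each time, so in the first fit ML 9 and control 1 entered both quantities. These are descriptions across genes of the same libraries, and the genes are not independent.

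The log2 fold change of FL against ML was below 0 for all 76 members (for 73 with no scaling factor), with a median log2 fold change of -1.91, against 0.04 over all genes and -1.21 over short genes that are not members. None passed at an edgeR adjusted p under 0.05, as 0.00675% of all genes did. At an unadjusted p under 0.05, edgeR gave 71 members, all lower in FL (93.4%), where 12.4% of all genes were called lower. DESeq2 gave 71 at that level and limma-voom gave 53, and both gave 0 at an adjusted p under 0.05. The edgeR count was 0 without ML 9 and 18 without FL 5. With a surrogate variable it was 0 and the median 0.052. With no scaling factor it was 47, where 4.47% of all genes were called lower and 11.4% higher, against 12.4% lower and 7.59% higher with TMM. Shares of all genes are again not given for DESeq2, limma-voom, the surrogate variable or 1 library left out. Every FL library was below every ML library for 52 members (68.4%), and for 15.1% of all genes.

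Without ML 9 and control 1 the FL against ML median was -0.63, and 51 members had an unadjusted p under 0.05, where 8.69% of all genes were called lower. None passed, as 0.00657% of all genes did, and 52 members did not overlap between the groups (18.6% of all genes). Rpl36, lowest at -2.94 (SE 0.95) with all libraries, was at -0.83 (SE 0.28) there. It had 96.9, 141 and 162 CPM in FL, against 173, 2604 and 299 in ML. Rps25 had 164, 190 and 256 CPM in FL, against 266, 2584 and 445 in ML. The groups did not overlap for these 2 genes, although FL 7 lay close to ML 8. Rpl26 had 141, 173 and 206 CPM in FL, against 224, 1699 and 340 in ML.

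The ribosomal RNA share, the level of short genes, and summed markers of hepatocytes and most other cell types were highest in ML 9. Their part in these differences was not tested. Of the 6 hepatocyte markers, 3 were highest in ML 9 (1 with no scaling factor) and, without it, 1 in control 1. Erythroid markers summed to 127 to 249 CPM in FL, 313 to 2114 in ML and 184 to 625 in controls, and all 5 were highest in ML 9 (4 with no scaling factor). Without ML 9, 4 of 5 were highest in control 1. T and NK cell markers summed to 2.15 to 3.50 CPM in FL, 3.97 to 17.1 in ML and 2.17 to 4.56 in controls, and 6 of 7 were highest in ML 9. Without ML 9, 2 of 7 were highest in control 1. B cell markers summed to 1.37 to 2.08 CPM in FL, 1.43 to 9.58 in ML and 0.688 to 5.36 in controls. All 4 were highest in ML 9 (1 with no scaling factor) and, without it, in control 1. Macrophage markers summed to 630 CPM in ML 9 and 138 (in ML 10) to 250 in the other 9 libraries, and 5 of 6 were highest in ML 9 (1 with no scaling factor). Stellate cell markers summed to 134 to 142 CPM in FL, 169 to 324 in ML and 138 to 262 in controls, with 1 of 4 highest in ML 9 and, without it, 3 of 4 in control 1 (0 and 2 with no scaling factor). No marker of these lists was at 0 counts in ML 9. Endothelial markers summed to 105 to 120 CPM in FL, 82.6 to 196 in ML and 116 to 148 in controls, with 1 of 5 highest in ML 9. Cholangiocyte markers summed to 4.80 to 15.0 CPM in FL, 4.78 to 20.3 in ML and 3.19 to 7.26 in controls, with 0 of 4 highest in ML 9. Without ML 9, 1 of 5 endothelial and 0 of 4 cholangiocyte markers were highest in control 1. Pancreatic acinar markers summed to 27.5 to 45.8 CPM in FL, 43.4 to 243 in ML and 24.5 to 117 in controls. Of these 4, 1 was at 0 in every library, 2 were at 0 in ML 9, 1 was highest in ML 9, and 3 were highest in control 1 without ML 9. With a smooth trend on exon length and GC taken out of each library, the medians were -0.18 in FL against control, 1.06 in ML against control and -1.28 in FL against ML. The unadjusted counts were then 0, 47 and 59 members, where 2.34% of all genes were called higher and 2.40% lower in FL against control, 7.35% were called higher in ML against control and 10.9% lower in FL against ML. Across the members, the ML log2 fold change then had a Pearson r of 0.519 with log2 exon length, against -0.0874 with the trend left in.

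Other genes of the translation machinery were counted from lists, none of whose members passed in ML against control. At an unadjusted p under 0.05, 8.81% of all genes were called higher and 7.33% lower there, and 12.4% and 15.1% without ML 9 and control 1. The 6 ribosomal proteins outside the symbol rule had a median log2 fold change of 1.04 in ML, with 6 of 6 above 0 and 4 at an unadjusted p under 0.05. The median was 0.79 without ML 9 and control 1, with 5 above 0 and 4 called higher. Fau had 249, 2722 and 423 CPM in ML, against 594, 170, 164 and 170 in controls. The 5 elongation factors, which carry tRNAs to the ribosome and move it along the mRNA, had a median of 0.80, with 2 called higher, and of 0.51 without both libraries, with 3 higher and 1 lower. Eef1g was at 0.97 (SE 0.37) and Eef1d at 0.80 (SE 0.36), and without both libraries at 0.51 (SE 0.20) and 0.24 (SE 0.22).

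The 28 initiation factors tested had a median of 0.15 in ML, with 19 above 0. At an unadjusted p under 0.05, 3 were higher (10.7%) and 2 lower (7.14%), near the 8.81% and 7.33% of all genes. The median was 0.27 without ML 9 and control 1, with 8 higher (28.6%) and 5 lower (17.9%), against 12.4% and 15.1% of all genes. Eif5a was at 1.01 (SE 0.39) and Eif5b, which joins the subunits, at -1.11 (SE 0.45), against 0.51 (SE 0.21) and -1.17 (SE 0.28) without both. The 8 other mRNAs that start with a TOP motif had a median of 0.12, with none at an unadjusted p under 0.05, and of 0.32 without both libraries, with 3 higher and 1 lower. Among them Btf3, a chaperone subunit for nascent chains, was at 0.65 (SE 0.34) and Hnrnpa1 at -0.82 (SE 0.38). Without both libraries they were at 0.69 (SE 0.22) and -0.85 (SE 0.27). The members' medians of 1.57 with all libraries and 0.92 without both lay above each of these lists in the same fits.

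For ribosome production, the 16 RNA polymerase I genes had a median of 0.63 in ML, with 9 above 0 and 6 higher at an unadjusted p under 0.05, and of 0.35 without ML 9 and control 1, with 5 higher. Polr2h and Polr2l, subunits shared by all nuclear RNA polymerases, were at 1.12 (SE 0.39) and 0.92 (SE 0.33), and without both libraries at 0.88 (SE 0.24) and 0.43 (SE 0.21). The 46 ribosome biogenesis genes had a median of 0.13 in ML, with 31 above 0 and 4 higher at an unadjusted p under 0.05 (8.7%, where 8.81% of all genes were). The median was again 0.13 without both libraries, with 11 higher (23.9%, where 12.4% of all genes were) and 1 lower. Nop16 was at 1.09 (SE 0.33) and Mrto4 at 1.25 (SE 0.46), and without both libraries at 0.84 (SE 0.25) and 0.69 (SE 0.20). In FL against control this list had the median furthest above 0 of the lists other than cell markers, 0.45. There 39 of its 46 genes were above 0, and 10 were higher at an unadjusted p under 0.05 (21.7%, where 1.63% of all genes were). The 4 cholangiocyte markers had a higher FL median, 0.75, while the ribosomal protein genes stood at -0.27. The FL median of the biogenesis list was 0.50 without ML 9 and control 1.

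The 21 genes of mTORC1 and growth control had a median of -0.40 in ML, with 6 above 0, 1 higher and 2 lower at an unadjusted p under 0.05. It was -0.36 without ML 9 and control 1, with 1 higher and 6 lower. Tsc1, a brake on mTORC1, was at -1.15 (SE 0.45), and Eif4ebp1, a repressor of initiation that mTORC1 inactivates, at 0.98 (SE 0.39). Without both libraries they were at -1.09 (SE 0.27) and 0.44 (SE 0.23). With the length and GC trend removed the list's median was -0.01, Tsc1 was at -0.52 (SE 0.29) and Eif4ebp1 at 0.68 (SE 0.30).

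The 76 mitochondrial ribosomal protein genes tested had a median of 0.93 in ML, with 74 above 0 and 36 higher at an unadjusted p under 0.05. The median was 0.66 without ML 9 and control 1, with 51 higher, and 0.64 with the length and GC trend removed, with 31 higher. Mrps21 was at 1.63 (SE 0.52) and Mrpl34 at 1.32 (SE 0.44), and without both libraries at 0.86 (SE 0.26) and 0.86 (SE 0.28). The 75 nuclear genes of oxidative phosphorylation had a median of 1.24, with 73 above 0 and 46 higher at an unadjusted p under 0.05. Theirs was 0.73 without both libraries (56 of 74 tested higher) and 0.71 with the trend removed (30 higher). Ndufa3, a complex I subunit, was at 1.62 (SE 0.53) and Cox7a1, the muscle form of a cytochrome oxidase subunit, at 3.56 (SE 1.06), with 2.65, 62.0 and 2.95 CPM in ML, against 4.90, 0.917, 1.35 and 0.650 in controls. Cox7a1 was at 1.53 (SE 0.42) and Ndufa3 at 0.56 (SE 0.27) without ML 9 and control 1.

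Ribosomal protein pseudogenes held 0.493% to 0.564% as many counts as the members in FL, 0.513% to 0.553% in ML and 0.495% to 0.587% in controls. The 97 tested of 262 rows had a median log2 fold change of 1.66 in ML, with 95 above 0 and 67 higher at an unadjusted p under 0.05. The median was 0.85 without ML 9 and control 1 (38 of 94 tested higher) and 0.83 with the trend removed (26 of 97 higher). Rps25-ps1, for example, was at 2.40 (SE 0.75), and 1.14 (SE 0.38) without both libraries. Reads shared between a gene and its processed copies could have been counted on either.

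**Figure D5:**
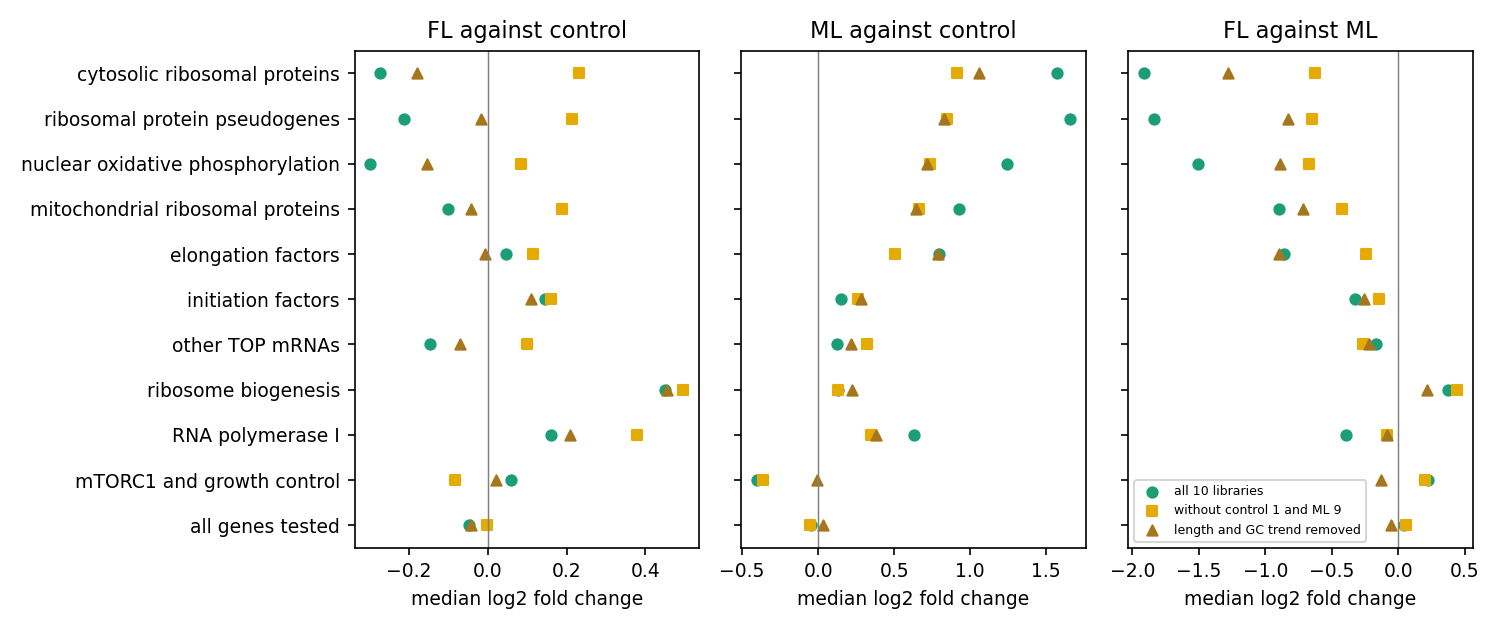
Median log2 fold change (horizontal axis) of each gene list (rows) in FL against control, ML against control and FL against ML, with all 10 libraries (circles), without control 1 and ML 9 (squares) and with a length and GC trend removed (triangles). Of the lists plotted, in ML against control with all 10 libraries the cytosolic ribosomal proteins (1.57), their pseudogenes (1.66) and oxidative phosphorylation (1.24) lie furthest above all genes tested (-0.05).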

How the data were processed

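The authors deposited whole-number counts of reads per gene for 10 mouse livers. Libraries were directional, paired-end and made from polyadenylated RNA, per the labels' protocols. Per the submitters' processing notes, STAR, featureCounts and the GRCm38 build were used; their versions, annotation, multimapping and strand settings were not given in the sources used here. Of 46071 rows, 45229 matched GENCODE M21 by identifier, and 842 did not.

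All genes were tested with edgeR 4.0.16 (R 4.3.3), using TMM factors, filterByExpr (minimum count 10), a coefficient per group and robust quasi-likelihood F tests on 7 residual degrees of freedom (5 without ML 9 and control 1). P-values are 2-sided, and adjusted ones use Benjamini-Hochberg over all genes tested, with a threshold of 0.05. The common biological coefficient of variation was 0.448. CPM used TMM-scaled library sizes, and shares are of raw counts. TPM was computed from the counts and the median length of a gene's coding transcripts. The procedure was tested on simulated data. No replicate pair matched within counting noise (chi-square divided by its degrees of freedom was 82.5 to 573). Nothing in the labels says outright that libraries are separate animals, so p-values measure the spread between libraries. No replicate number is shared between groups.

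The members and gene lists were chosen with earlier results of these data known. Named members were the 4 with the lowest p in each comparison, the 5 highest and 3 lowest by mean TPM, the 2 with the most variable share, and paralog pairs, and of each list the 2 genes with the lowest p in ML. Rps4x, Rplp0, Rplp2, Rpl5, Rpl11 and Rps6 were added afterwards. The individual results of some genes that the rule names are not reported here. Alternatives were DESeq2 1.42.0, limma-voom (limma 3.58.1), other scaling factors and, chosen after seeing the data, none, no filter, a looser threshold of 0.10, only the compared groups, a length and GC trend removed, a surrogate variable (sva 3.50.0), and libraries left out.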

Additional observations from a re-analysis of the deposited data

Results flagged for a closer look

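Control 1 lay far above the 3 other controls for ribosomal protein genes, by a gap that exceeded Dixon's 95% critical value for 4 samples. Chance flags about 1 in 20 groups. The gap was that large for 66 of the 76 members, which move together, so these flags are not independent. Among large subunit genes, control 1 had 441 CPM of Rpl22, 365 of Rpl26, 727 of Rpl41, 452 of Rpl36, 1840 of Rpl13a, 920 of Rplp1 and 68.5 of Rpl23a. Among small subunit genes, it had 1591 CPM of Rps14, 927 of Rps27a, 671 of Rps27l, 520 of Rps25, 1059 of Rps18, 255 of Rps20 and 586 of Rps27. The members' share of its counts, 3.86%, was far above the other controls, and its ratio of large to small subunit counts, 1.19, was far below them. Control 1 had the fewest counts of any library. Groups of 3, FL and ML, are too small for this comparison.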

How the results depend on the processing

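No member passed an adjusted p under 0.05 in any comparison under any alternative run, or at 0.10 in edgeR with all libraries. Some other runs had members under 0.10. In ML against control the lowest edgeR adjusted p was 0.060 without control 1 and 0.095 without control 1 and ML 9. In FL against ML the lowest DESeq2 adjusted p was 0.061. For each change below the cause was not tested. In FL against control the members' median (-0.27) changed sign, to 0.13, under a surrogate variable and, to 0.23, when control 1 and ML 9 were dropped, and leaving out 1 library at a time gave -0.42 to 0.23, with the sign change without control 1. In ML against control the median was 0.098 with a surrogate variable and 0.33 to 2.15 with 1 library left out. In FL against ML it changed sign to 0.052 with a surrogate variable, was -0.63 without both libraries and -2.31 to -0.64 with 1 left out. The count at an unadjusted p under 0.05 in ML against control was 37 with limma-voom, 0 with a surrogate variable and 0 to 73 with 1 library left out. In FL against ML it was 0 with a surrogate variable and 0 to 73 with 1 left out. With no scaling factor these counts were 40 and 47, and the median of all genes was 0.08, -0.25 and 0.37 in FL against control, ML against control and FL against ML. The members' median then lay -0.19, 1.30 and -1.59 from it. Shares of all genes are not given for the counts with limma-voom, a surrogate variable or 1 library left out.

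Single members changed sign as follows. In FL against control, leaving out 1 library at a time gave -0.97 to 0.050 for Rpl22, -1.23 to 0.31 for Rps14, -0.90 to 0.29 for Rps27a and -1.003 to 0.18 for Rps27l, each above 0 without control 1. Without both libraries they were at 0.055, 0.31, 0.30 and 0.19. With a surrogate variable, Rps14 was at 0.0049 and Rps27a at 0.0051. In ML against control, the surrogate variable put Rpl22 at -0.18, Rps14 at -0.21, Rps27a at -0.21, Rps27l at -0.00091, Rpl13a at -0.088 and Rplp1 at -0.11. In FL against ML, it put Rpl36 at 0.064, and removal of the length and GC trend put Rpl30 at 0.046 and Rpl4 at 0.023. With no scaling factor, an alternative chosen after seeing the data, Rpl30 was at 0.14 and Rpl4 at 0.060 there. No paired analysis was possible because the groups share no replicate numbers.

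The median SE of a member in ML against control was 0.61 with all libraries and 0.24 without ML 9 and control 1. The members had at least 16764 counts each, summed over the 10 libraries, and the effect of depth was not tested.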
